A study of Mus musculus with 2 samples.

Results

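Solute carrier genes, the SLC superfamily of membrane transporters, were examined in murine effector CD8+ T cells stimulated once in culture and in such cells stimulated a second time. Members were taken as every gene whose symbol begins with Slc and a digit, from probes annotated to 1 gene symbol and with a value on both arrays, and the probes of a gene were averaged. This gave 229 genes, of 14150 genes in all, from 250 probes in 49 families. A further 5 genes had a probe with a value on 1 array only. All cells derive from pmel T cell receptor transgenic mice, in which CD8+ T cells recognise an epitope of gp100, a pigment cell protein, and both stages share that specificity. Each 2-colour array compared total RNA from cells stimulated once (channel 1) with that from cells stimulated a second time (channel 2), and array 2 was labelled a repeat. The labels leave unsaid whether the repeat came from separate cells, so SDs and p-values cover only how far these arrays differ, and that may be technical variation.

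Solute carriers move nutrients, ions and metabolites across membranes. A T cell that is stimulated and starts to divide takes up more glucose, glutamine and large neutral amino acids, for which the glucose transporters of the Slc2 family, the glutamine carriers Slc1a5 and Slc38a1 and the heterodimer of Slc7a5 and Slc3a2 are well known. The Slc16 family includes carriers of lactate and other monocarboxylates. Slc28 and Slc29 carry nucleosides, and Slc25 carriers link the mitochondrial matrix with the cytosol. Classes follow the family name, so not every Slc16 gene in the glucose and lactate class need carry lactate.

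The deposited values are log ratios between channels, taken as log2. Which channel is the numerator is not given. Titles and channel numbers name the cells stimulated once first, and on that order alone the positive side likely stands for more RNA after stimulation 1 and the negative side for more after stimulation 2. Spot intensities were not used here, so the level behind a ratio is unknown, the presence of a transcript in these cells cannot be read from it, and fewer cells of a type cannot be told apart from less RNA per cell.

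As a group the solute carriers lay close to the ratio of 1. Their median log2 ratio was -0.005, with 0.01 on each array, beside -0.02 over all genes. Of the 229 genes, 78 (34.1%) were positive on both arrays, where the share over all genes was 29.6%, and 69 (30.1%) were negative on both, where it was 33.6%. The mean ratio lay within 0.25 of 0 for 74.2% of the solute carriers and for 63.8% of all genes, and the SD of the mean ratios was 0.301 against 0.365 over all genes. Across the 229 genes, which are not independent replicates, Pearson's r between the arrays was 0.449 and Spearman's rho was 0.380, as a description.

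A difference of 2-fold or more was seen on both arrays for 1 solute carrier gene on the positive side, Slc28a2, where 0.233% of all genes did so, and 0 stood there on the negative side, where 0.721% did. At a smaller size of 0.5 on the log2 scale (1.41-fold) on both arrays, the positive side held 3 genes, Slc28a2, Slc26a2 and Slc7a9, against 1.92% of all genes. The negative side held 1 gene at that size, Slc4a1ap, against 4.31% of all genes. Slc4a1ap encodes an adaptor protein and no carrier, so 0 transporter genes reached this size on the negative side on both arrays. In limma's moderated test, adjusted over the 14150 genes by the Benjamini-Hochberg method, 0 solute carriers passed 0.05 (0% of all genes), the smallest adjusted p being 0.122 for Slc28a2. At an unadjusted p under 0.05 there were 28, or 12.2% against 16.2% of all genes, of which 13 were positive (5.86% of all genes) and 15 negative (10.3%). After quantile normalization of the 2 arrays, which gives both the same spread of values, limma passed Slc28a2 (adjusted p = 0.00847), Slc4a1ap (adjusted p = 0.0257) and Slc26a2 (adjusted p = 0.0353), with 3.39% of all genes passing, 0.989% on the positive and 2.4% on the negative side. limma with a robust prior, after median centring or on all probes passed 0 solute carriers. The genes below are given by their ratio on each array.

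**Figure D1:**
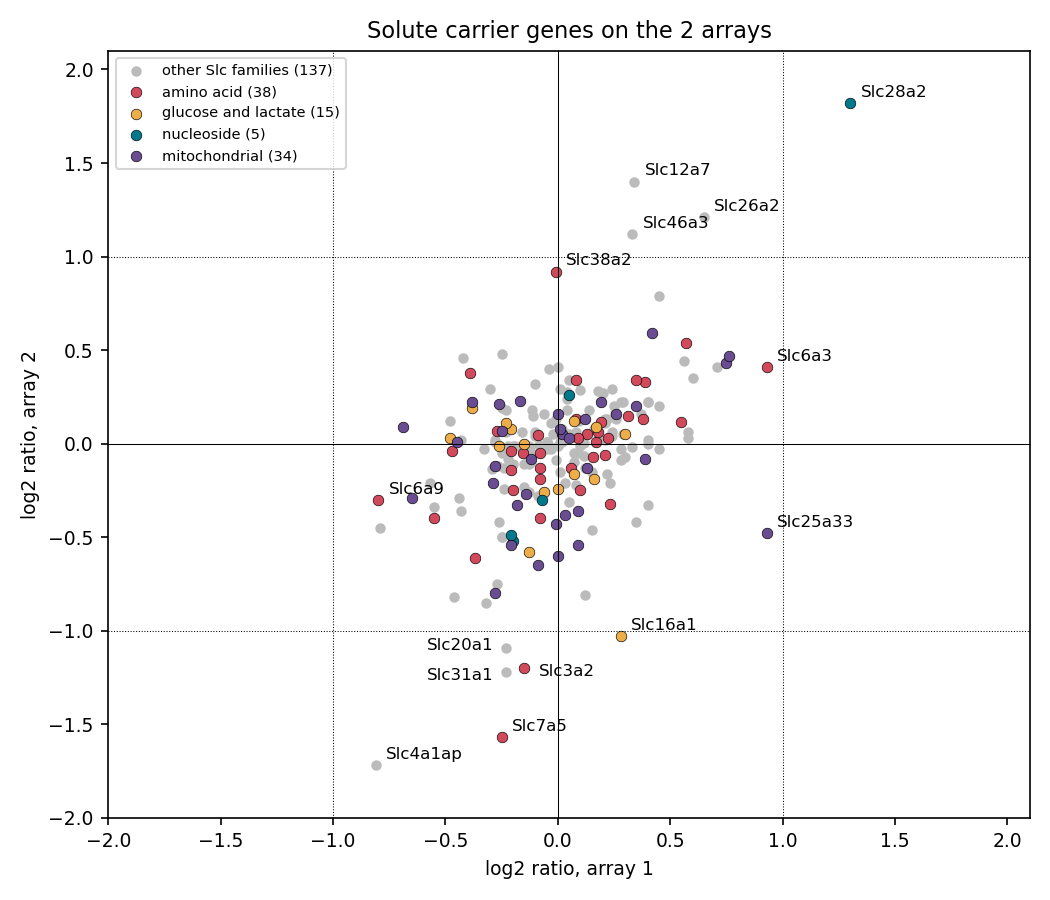
Log2 ratio of each of the 229 solute carrier genes on array 1 (horizontal) against array 2 (vertical), coloured by transporter class, with dotted lines at a 2-fold difference. Slc28a2 is the only gene past the dotted lines on both arrays, while Slc7a5, Slc3a2, Slc20a1, Slc31a1, Slc16a1, Slc12a7 and Slc46a3 pass it on array 2 and lie within 0.5 of 0 on array 1.

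Slc28a2, the concentrative nucleoside transporter CNT2, which draws purine nucleosides and uridine into cells with sodium, read 1.30 on array 1 and 1.82 on array 2. It was more than 2-fold positive on each array. Its mean was 1.56 ± 0.37 (SD, n = 2), a 2.95-fold difference with a 95% confidence interval of 1.08 to 2.04 on the log2 scale from limma, and it ranked as number 19 of 14150 genes from the positive end. The value rests on 1 probe. The probes next to it in probe number, of Copb2 and Arfgap1, read -0.01 and -0.41, and 0.16 and 0.02. In the RefSeq gene table for GRCm38.p6 a close relative, Slc28a2b, lies near Slc28a2 on the same chromosome, and how far the probe tells them apart was not tested. Of 6 listed B cell markers 5 were measured, from -0.045 for Blk to 1.145 for Cd79b around a median of 0.33. On both arrays 4 of these were positive and 1 negative. Of 8 listed T cell markers 7 were measured, from -0.15 for Thy1 to 0.635 for Cd8a around a median of 0.185. On both arrays 5 of these were positive and 0 negative, where 29.6% and 33.6% of all genes were. The part of these markers in the ratio of Slc28a2 was not tested.

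The promoter windows of Slc28a2, Slc3a2 and Slc20a1 are shown, from 250 bases before to 50 bases after the start given by RefSeq on GRCm38.p6. They are examples, and other genes named here, among them Slc26a2 and Slc4a1ap, have no window shown. A part of any motif in a ratio was not tested. Capitals mark the motifs searched on both strands: CACGTG, the E-box that MYC and its relatives bind; CAGCTG, an E-box of E-proteins; and TGATGNAA, the core of the amino acid response element. The window of Slc28a2 is chr2:122426185-122426484 on the + strand, that of Slc3a2 is chr19:8713848-8714147 on the - strand, and the first of the 2 listed for the phosphate carrier Slc20a1 is chr2:129198523-129198822 on the + strand. Slc7a5 was not matched in the promoter table.
Slc28a2: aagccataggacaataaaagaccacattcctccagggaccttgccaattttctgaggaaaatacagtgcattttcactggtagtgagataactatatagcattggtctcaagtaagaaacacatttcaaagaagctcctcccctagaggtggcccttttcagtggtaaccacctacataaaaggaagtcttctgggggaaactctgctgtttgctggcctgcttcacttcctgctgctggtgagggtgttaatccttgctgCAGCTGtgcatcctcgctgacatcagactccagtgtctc
Slc3a2: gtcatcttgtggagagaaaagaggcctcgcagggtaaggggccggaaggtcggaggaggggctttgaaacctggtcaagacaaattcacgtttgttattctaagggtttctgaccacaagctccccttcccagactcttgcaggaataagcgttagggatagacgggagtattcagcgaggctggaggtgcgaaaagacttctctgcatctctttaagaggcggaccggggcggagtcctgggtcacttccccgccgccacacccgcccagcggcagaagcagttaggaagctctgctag
Slc20a1: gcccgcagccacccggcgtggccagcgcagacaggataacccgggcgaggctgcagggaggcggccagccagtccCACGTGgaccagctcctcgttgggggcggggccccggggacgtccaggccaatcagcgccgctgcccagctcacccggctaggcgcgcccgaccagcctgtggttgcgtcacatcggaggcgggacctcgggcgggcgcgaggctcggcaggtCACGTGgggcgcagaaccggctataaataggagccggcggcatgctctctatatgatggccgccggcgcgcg
The Slc28a2 window held 1 CAGCTG and no match of the other motifs, the Slc3a2 window held no match, and the Slc20a1 window held CACGTG at 2 places, with first bases at -175 and -22 relative to the start. A match is a description of the letters and not a binding site. Over 27025 genes with a window, taking the first one listed, CACGTG was found in 7.24%, CAGCTG in 16.1% and TGATGNAA in 4.06%. Of the 229 solute carriers 182 were matched by symbol to a window that was kept, and 13.2% of these held CACGTG, 18.7% CAGCTG and 4.40% TGATGNAA. CACGTG was found in 5 of 26 mitochondrial, 3 of 28 amino acid, 1 of 11 glucose and lactate and 0 of 5 nucleoside carriers. In the same order, CAGCTG was found in 3, 7, 1 and 2 genes, and TGATGNAA in 0, 4, 0 and 0. The 27025 genes were not limited to those measured, and windows of 1 chromosome were left out throughout.

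The other nucleoside carriers lay near 0 or on the opposite side from Slc28a2. Slc29a1, the equilibrative transporter ENT1 of the plasma membrane, read -0.21 and -0.49 on arrays 1 and 2. Slc28a3, a concentrative carrier of both purine and pyrimidine nucleosides, read -0.20 and -0.52, and Slc29a2 (ENT2) -0.07 and -0.30. Slc29a3, an equilibrative transporter of intracellular membranes, read 0.05 and 0.26. Each of the 5 genes thus kept its sign on both arrays, with 3 negative and 2 positive, and the class median of -0.185 and the mean of Slc28a2 were on opposite sides. The limma intervals of the 4 other genes included 0, as with -0.75 to 0.05 for Slc29a1.

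Enzymes that salvage nucleosides and bases after uptake were set beside the carriers, from a list of 13 genes of which 12 were measured. The median was -0.35 beside -0.02 over all genes, and on both arrays 7 were negative, where 33.6% of all genes were, and 1 was positive, where 29.6% were. Upp1, a uridine phosphorylase, read -1.46 and -0.55. Uck2, a uridine-cytidine kinase, gave -0.67 on each array. For Aprt, which recovers adenine, the values were -0.65 and -0.66, and for Hprt, which recovers hypoxanthine and guanine, -0.38 and -0.96. Pnp, the purine nucleoside phosphorylase, read -0.47 and -0.79. These 5 genes were negative on both arrays, while Slc28a2 was positive on both. The positive exception was Dguok, the mitochondrial deoxyguanosine kinase, at 0.48 and 0.93. At an unadjusted p under 0.05 in limma's test there were 6 of the 12, beside 16.2% of all genes, and 0 after adjustment over all genes.

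**Figure D2:**
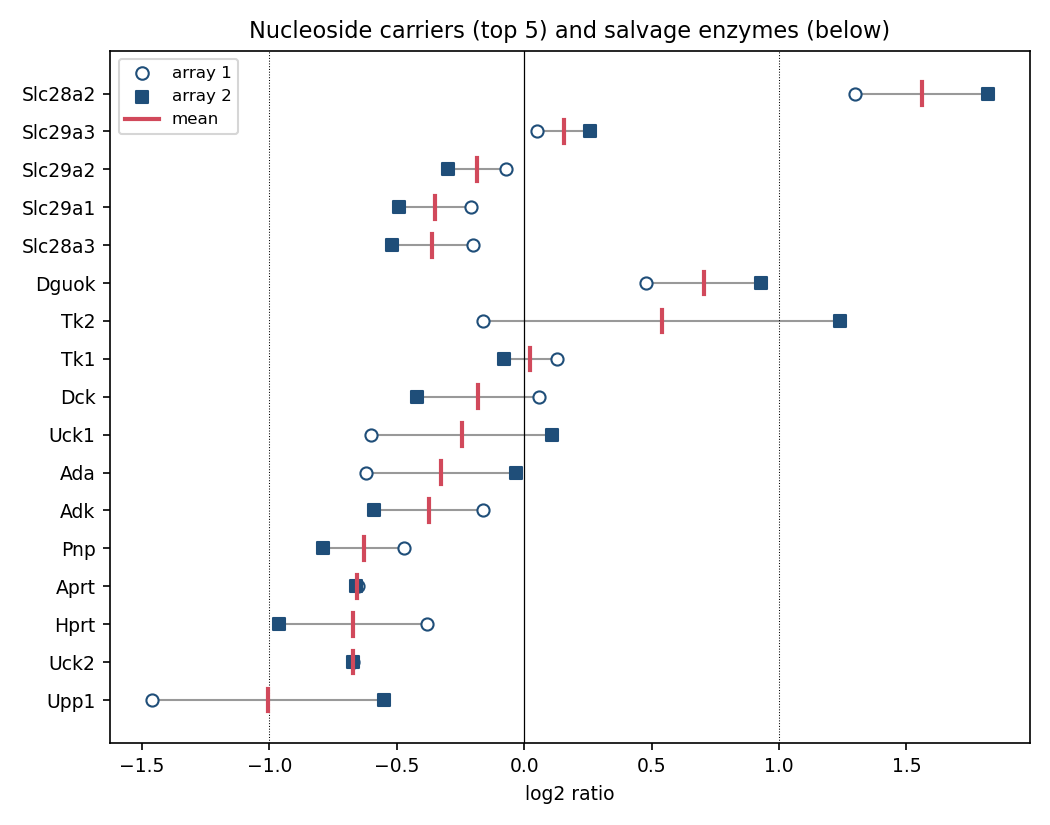
Log2 ratios of the 5 nucleoside carriers and, below them, 12 salvage enzymes, with array 1 as open circles, array 2 as filled squares and the mean as a red bar. Slc28a2 stands at 1.30 and 1.82, and Upp1, Uck2, Aprt, Hprt and Pnp lie to the left of 0 on both arrays.

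Among 38 genes of the amino acid families (Slc1, 3, 6, 7, 38 and 43), 15 were positive on each array and 14 negative on each. These are 39.5% and 36.8%, beside 29.6% and 33.6% of all genes. The median was -0.014 for the mean ratio, 0.07 for array 1 and -0.015 for array 2. It was 0.019 without Slc6a19os and Slc7a6os, which name no carrier, and 0.019 without the Slc6 family, so the side of this median depends on which symbols are counted. The gene farthest on the negative side was Slc7a5, the light chain (LAT1) of the exchanger of large neutral amino acids such as leucine. It read -0.25 on array 1 and -1.57 on array 2. The mean was -0.91 ± 0.93 (SD, n = 2), with a limma interval of -1.81 to -0.01 and an adjusted p of 0.303. Slc3a2, the CD98 heavy chain that brings Slc7a5 to the cell surface, read -0.15 and -1.20, a mean of -0.675 ± 0.74 (SD, n = 2), with an interval of -1.42 to 0.07. Both chains were thus negative on both arrays and more than 2-fold so on array 2 only.

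Slc3a2 also serves other light chains, and these did not share its size. Slc7a11, which imports cystine, read -0.47 and -0.04. Slc7a7 read 0.10 and -0.25, Slc7a8 (LAT2) 0.31 and 0.15, and Slc7a10 0.09 and 0.03. Of the 5 measured light chains of Slc3a2, Slc7a5 was the only one past 2-fold on either array. The other heavy chain, Slc3a1, lay at -0.08 and -0.05, while its partner Slc7a9, a carrier of cystine and basic amino acids known from kidney, read 0.57 and 0.54. Slc7a9 was the member of the amino acid class at 0.5 or more on both arrays, with a mean of 0.555 ± 0.02 (SD, n = 2).

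Glutamine and small neutral amino acid carriers were found on both sides. Slc38a1 (SNAT1), a sodium-coupled glutamine carrier, was negative on both arrays at -0.37 and -0.61. Slc1a5 (ASCT2) read -0.08 and -0.40. Slc38a2 (SNAT2), which is induced when amino acids are short, read -0.01 and 0.92, so its ratio rests on array 2. The limma interval of Slc1a5 was -0.65 to 0.17, and the sign of its mean is not resolved by 2 arrays. Slc7a1, the arginine and lysine carrier CAT1, read 0.38 and 0.13. Slc43a1 (LAT3), a sodium-independent carrier of leucine and its like, read 0.39 and 0.33. Its family member Slc43a3, a carrier of purine bases, lay opposite at -0.55 and -0.40. For the taurine transporter Slc6a6 the arrays ran opposite ways, with -0.39 and 0.38.

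In the Slc6 family, which holds neurotransmitter as well as amino acid carriers, the ends were Slc6a3, the dopamine transporter, at 0.93 and 0.41, and Slc6a9, the glycine transporter GLYT1, at -0.80 and -0.30. Both had a larger ratio on array 1 than on array 2, unlike Slc7a5 and Slc3a2. Slc1a2, a glutamate transporter of the brain, had 3 probes, with means of 0.86, 0.255 and -0.125. The first of them read 1.59 and 0.13, so no single value stands for that gene.

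Genes of amino acid sensing and use were set beside the carriers, with 15 of 17 measured. Their median was -0.115, with 4 positive and 5 negative on each array, near the shares of 29.6% and 33.6% over all genes. Asns, asparagine synthetase, read -0.48 and -0.85, and Ddit4, an inhibitor of mTORC1 signalling, -0.49 and -0.80. Sesn1, a sestrin that also restrains mTORC1, lay on the other side at 0.32 and 0.83. Myc read 0.30 and -1.05, and Atf4, a transcription factor of the amino acid response, 0.01 and -0.91. These 2 genes, named after their values were seen, had a large negative ratio on array 2 and none on array 1. Slc7a5 and Slc3a2 also had their large ratio on array 2 only, and a link of Myc or Atf4 with them was not tested. In limma's test 0 of these 15 genes passed after adjustment over all genes, and 3 had an unadjusted p under 0.05, a share near the 16.2% of all genes.

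The difference between the arrays was not limited to these. At least 2-fold on array 2 and within 0.5 of 0 on array 1 were 7 solute carriers, or 3.06%, against 1.94% of all genes. The converse was seen for 0 solute carriers and for 0.657% of all genes. The 7 genes were Slc7a5, Slc3a2, Slc16a1, Slc20a1 and Slc31a1 on the negative side and Slc12a7 and Slc46a3 on the positive side. The SD over the solute carriers was 0.394 on array 2 and 0.310 on array 1, and over all genes it was 0.461 and 0.374.

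The glucose and lactate carriers, 7 genes of the Slc2 and 8 of the Slc16 family, had the smallest spread of the 4 classes, with an SD of the mean ratios of 0.156. Their means ran from -0.375 to 0.175, around a median of -0.075, and the single arrays had medians of -0.06 and 0.00. On both arrays 3 were positive and 3 negative, 20% on each side, beside 29.6% and 33.6% of all genes. The other 9 had opposite signs or a 0 on an array. Slc2a1, the glucose transporter GLUT1, read -0.48 and 0.03, and Slc2a3 (GLUT3), the high-affinity form of lymphocytes and neurons, 0.17 and 0.09. Their limma intervals were -0.71 to 0.26 and -0.23 to 0.49. A 2-fold ratio lies outside both, but the intervals cover only how far these arrays differ. They do not exclude a 2-fold difference between the stages. Slc16a1 (MCT1), which moves lactate in either direction, read 0.28 and -1.03. Slc16a3 (MCT4), the lactate exporter of glycolytic cells, read -0.38 and 0.19. For both lactate carriers the arrays disagreed in sign, and for Slc16a1 the interval of -1.26 to 0.51 includes 2-fold on the negative side. Across the 15 genes the arrays did not run together, with Pearson's r = -0.406, given as a description.

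Chaperones and enzymes that work with these carriers were measured for all 8 genes listed, with 3 positive and 3 negative on each array (29.6% and 33.6% of all genes) and a median of 0.10. Bsg, basigin, the chaperone of MCT1 and MCT4, read 0.44 and 0.33. Emb, embigin, the chaperone of MCT2, read 0.86 and 1.32, with a mean of 1.09 ± 0.33 (SD, n = 2). Slc16a7, the gene of MCT2, lay at -0.26 and -0.01. The chaperone and carrier ratios were therefore on opposite sides for Emb and Slc16a7. Hk2, the hexokinase that traps glucose after uptake, was negative on both arrays at -0.495 and -1.0, and Ldha, which makes lactate, at -0.33 and -0.64. Hif1a, a driver of glycolytic genes, was positive at 0.63 and 0.46. Txnip, which promotes removal of GLUT1 from the surface, read -0.52 and 1.17, so it has no settled side. Of these 8 genes 0 passed limma's test over all genes, and 5 had an unadjusted p under 0.05, beside 16.2% of all genes.

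**Figure D3:**
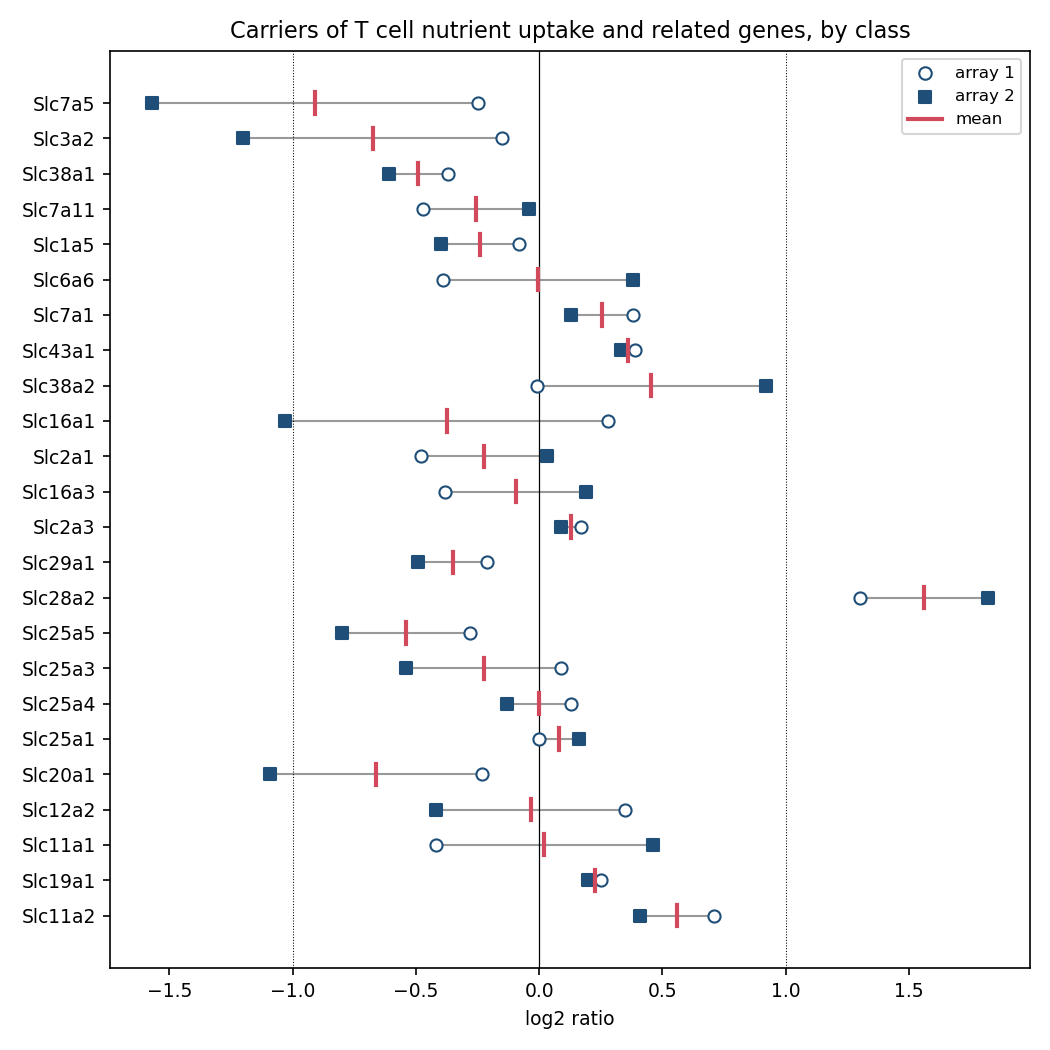
Log2 ratios of 24 carriers known for nutrient and ion uptake or mitochondrial exchange, on array 1 (open circles) and array 2 (filled squares), with the mean as a red bar and dotted lines at 2-fold. Slc28a2 stands apart on the right at 1.30 and 1.82, and the long lines of Slc7a5, Slc3a2, Slc16a1 and Slc20a1 show how far the arrays differed for these genes.

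The 34 mitochondrial carriers of the Slc25 family were spread evenly, 10 being positive and 10 negative on each array. That is 29.4% on each side, near the 29.6% and 33.6% of all genes. The median was -0.085 for the mean ratio and 0.00 and -0.035 for the single arrays. None reached 0.5 on both arrays. Slc25a5 (ANT2), the ADP/ATP carrier of dividing cells, was negative at -0.28 and -0.80. Slc25a4 (ANT1), the form of heart and muscle, read 0.13 and -0.13. Slc25a10, which exchanges dicarboxylates such as succinate and malate for phosphate, was negative at -0.65 and -0.29. The aspartate-glutamate carrier Slc25a13 read -0.21 and -0.54 and the glutamate carrier Slc25a22 -0.09 and -0.65. Slc25a3, the phosphate carrier, read 0.09 and -0.54, and Slc25a1, the citrate carrier, 0.00 and 0.16.

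The 3 mitochondrial carriers with the highest means, named after their values were seen, were Slc25a51, Slc25a42 and Slc25a28. Slc25a51, which brings NAD+ into the matrix, read 0.76 and 0.47, a mean of 0.615 ± 0.21 (SD, n = 2). Slc25a42, a carrier of coenzyme A, read 0.75 and 0.43, and the mitochondrial iron importer Slc25a28 (mitoferrin 2) 0.42 and 0.59. All 3 were positive on both arrays and had an unadjusted p under 0.05 in limma's test, with adjusted p of 0.200, 0.215 and 0.230. Slc25a37, the other mitoferrin, read -0.38 and 0.22. Slc25a33, a carrier of pyrimidine nucleotides, gave the widest gap between arrays in this class, with 0.93 and -0.48, followed by the glutamate carrier Slc25a18 with -0.69 and 0.09. Other proteins of mitochondrial membrane transport, 9 of 11 measured, had a median of -0.26, with 7 genes negative and 1 positive on each array, beside 33.6% and 29.6% of all genes. Vdac3, a pore of the outer membrane, read -0.18 and -0.81 and the pyruvate carrier subunit Mpc1 -0.01 and -0.51. Of these 9 genes 0 had an unadjusted p under 0.05 in limma's test, beside 16.2% of all genes.

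**Figure D4:**
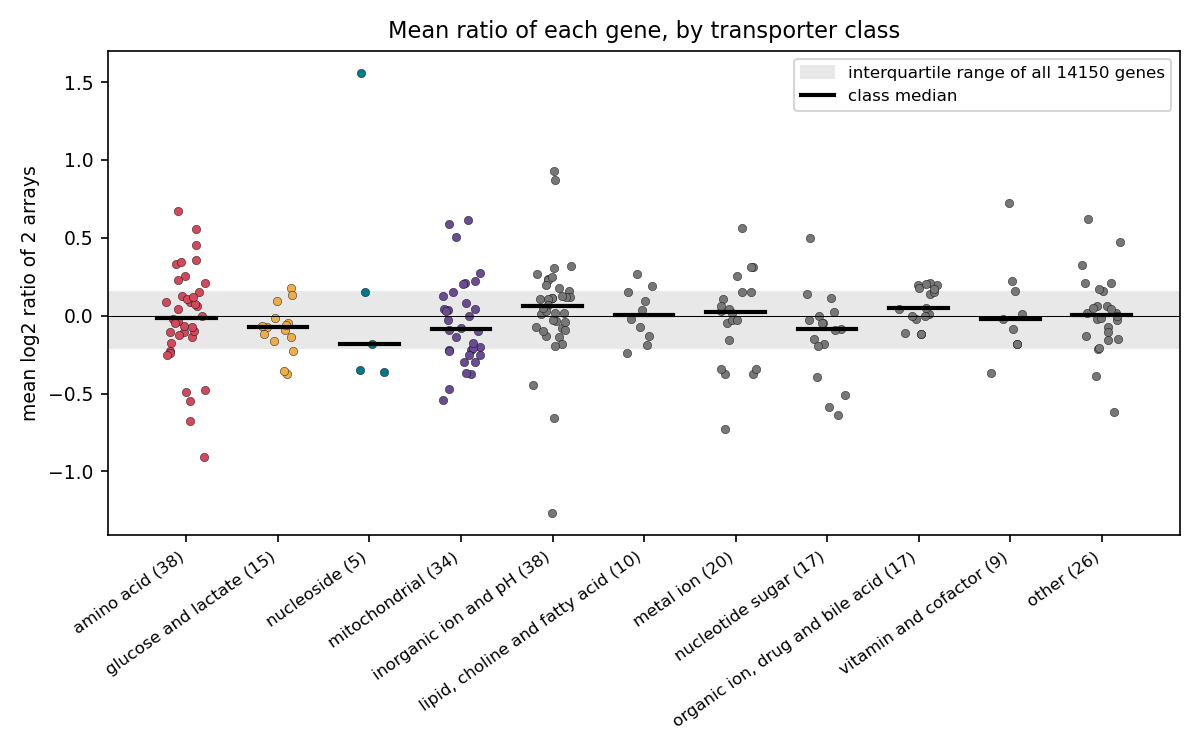
Mean log2 ratio of the 2 arrays for each solute carrier gene, by transporter class with the number of genes, where the black bar is the class median and the grey band the interquartile range of all 14150 genes (-0.21 to 0.155). Each class median lies inside the grey band, with the nucleoside class lowest at -0.185 and its member Slc28a2 the highest point at 1.56.

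Outside the 4 classes were 137 genes, of which 48 were positive and 39 negative on each array around a median of 0.015. These are 35% and 28%, beside 29.6% and 33.6% of all genes. Slc26a2, a sulfate carrier, was the largest of them on the positive side, at 0.65 and 1.21 on the 2 arrays. Its mean was 0.93 ± 0.40 (SD, n = 2), with a limma interval of 0.43 to 1.43, and it ranked as number 130 of all genes from the positive end. Slc12a7, the potassium-chloride cotransporter KCC4, read 0.34 and 1.40. The probe next to it in probe number, of St8sia4, read 0.36 and 1.49, and whether the closeness of the 2 probes has a part in this was not tested. Slc46a3, a carrier of lysosomes, read 0.33 and 1.12, and Slc50a1, a sugar carrier, 0.45 and 0.79.

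On the negative side Slc4a1ap (kanadaptin), named for its binding to the anion exchanger of red cells, read -0.81 and -1.72. The anion exchanger itself, Slc4a1, lay at -0.15 and -0.11, and 4 of 6 erythroid markers were measured, from -0.425 for Ermap to 0.025 for Alas2. Slc20a1, a phosphate importer of the cell surface that also serves as a retroviral receptor, read -0.23 and -1.09. Slc12a2, the sodium-potassium-chloride cotransporter NKCC1, read 0.35 and -0.42, and the folate carrier Slc19a1 0.25 and 0.20.

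Of 20 metal carriers 7 (35%) were positive and 6 (30%) negative on each array, near the 29.6% and 33.6% of all genes. Slc31a1, the copper importer CTR1, read -0.23 and -1.22, and Slc31a2, its relative of internal membranes, 0.29 and 0.22. Slc11a2 (DMT1), which carries iron out of endosomes, was positive at 0.71 and 0.41, and the iron exporter Slc40a1 lay at -0.03 and -0.02. Slc11a1, the form of macrophages, read -0.42 and 0.46, and 4 of 6 myeloid markers were measured, from -0.375 for Cd14 to 0.21 for Lyz2. Tfrc, the transferrin receptor, which delivers iron to the endosomes where DMT1 acts, was negative at -0.505 and -0.705. Of the 7 iron-handling genes listed, 6 were negative on each array, beside 33.6% of all genes, and 0 positive, around a median of -0.33. In limma's test 1 of the 7 had an unadjusted p under 0.05, beside 16.2% of all genes, and 0 passed over all genes. The zinc carriers Slc30a5 and Slc39a7, of the secretory pathway, read -0.25 and -0.50, and -0.26 and -0.42. The counts of their families are given as a description. On both arrays 3 of 7 Slc30 genes (42.9%) were negative and 0 positive. Of 7 Slc39 genes 1 (14.3%) was negative and 4 (57.1%) positive. Over all genes 33.6% were negative and 29.6% positive, and 7 genes are too few to set a family apart from these shares. Slc30a7 read -0.085 and -0.005, and the arrays disagreed in sign for Slc30a6 (-0.115 and 0.18).

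The Slc35 family, which carries nucleotide sugars and related substrates into the endoplasmic reticulum and Golgi, had more negative than positive members. On both arrays 9 of 17 genes (52.9%) were negative and 3 positive, beside 33.6% negative over all genes, and the median was -0.085 for the mean ratio, -0.25 for array 1 and -0.065 for array 2. Slc35a4 read -0.46 and -0.82, Slc35b1, an ATP carrier of the endoplasmic reticulum, -0.32 and -0.85, and Slc35a5 -0.27 and -0.75. Slc35b3, a carrier of the sulfate donor PAPS, lay on the other side at 0.56 and 0.44. In limma's test 5 of the 17 had an unadjusted p under 0.05, beside 16.2% of all genes, 4 of them negative, beside 10.3%, and 0 passed after adjustment.

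For 18 solute carriers 2 or 3 probes were measured, and their means lay less than 1 apart in every case, the widest gap being the 0.985 of Slc1a2. The signs of the probe means differed for Slc44a1 (-0.125 and 0.51), Slc39a9 (-0.25 and 0.37) and Slc38a10 (-0.29 and 0.245) among others. The other 211 genes, all carriers of the fixed set included, rest on 1 probe. The channels were assigned alike on the arrays and no dye swap is labelled, so a preference of a probe for a dye cannot be told apart from a difference in RNA.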

How the data were processed

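The authors deposited 1 log2 ratio per probe and array, to 2 decimals. Scanner, background correction, normalization and filters are not given in the sources used here, and log base 2 is an assumption. Gene names follow the platform annotation, in which probes had these matches: 15998 of 21919 had 1 symbol, 288 several and 5633 none. The 21427 probes with both values gave 14150 genes. The arrays were centred near 0, with medians of 0.01 and 0.02, so a shift of all genes would not be seen. No depth applies to arrays: their number, 2, limits the precision.

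The gene means were fitted with limma 3.58.1 in R 4.3.3 (intercept over both arrays against 0, two-sided, Benjamini-Hochberg over all genes). The limma step was run on ratios simulated from its own fitted spread, which does not test how far that spread holds for these data. Members, classes and gene lists were chosen with earlier results of these data known.

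Genes were named by a rule: 2-fold on both arrays; the 8 largest on each side at 0.5 or more on both; class members at that size; the 2 genes of each class whose arrays differ most; probes over 1 apart; and a fixed set of T cell carriers. Further genes were chosen after their values were seen. Alternatives were other probe summaries, scalings, priors and thresholds, probes with 1 value, natural logs and leaving out each array.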

Additional observations from a re-analysis of the deposited data

How the results depend on the processing

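Of 653 alternative values of the genes named, 651 moved by no more than the SD between arrays, which leaving out an array fixes by construction, the others being Slc40a1 (-0.04) and Slc9a3r1 (-0.055) under median centring. Genes whose arrays had opposite signs, such as Slc16a1, change side with the array used. Leaving out an array moved the counts most. On a single array 1 to 4 solute carriers were at least 2-fold positive and 0 to 6 negative. At 0.5 or more there were 8 to 13 on the positive and 8 to 20 on the negative side. At any size 115 to 119 were positive and 108 to 109 negative. Array 2 had the wider spread over all genes (SD 0.461 against 0.374). Shares of all genes on a single array or as natural logs are not given, so such counts are no result about the carriers. A single array leaves limma without residual degrees of freedom, so no test was run. Read as natural logs, 1 gene was 2-fold negative, and 11 positive and 6 negative genes reached 0.5. Without the 5 symbols that name no carrier, added after seeing the data, 0 were at 0.5 on the negative side. The median of all solute carriers was -0.02 for genes with 1 probe, -0.02 after median centring, -0.014 after quantile normalization and 0.01 on each single array. On single arrays class medians ran from -0.015 to 0.07 (amino acid), -0.06 to 0.00 (glucose and lactate), -0.30 to -0.07 (nucleoside) and -0.035 to 0.00 (mitochondrial). limma called 3 genes after quantile normalization and 28 at an unadjusted p under 0.05, against 0. Each ratio already compares the stages within an array, and the arrays form 1 group, so no further pairing was made.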
